A study of Rattus norvegicus with 18 samples.

Results

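The respiratory chain was described here through 102 of the 28909 genes in the deposited table, 89 encoded in the nucleus and 13 in the mitochondrial genome. Nuclear members were the rows whose names start with NDUFA, NDUFB, NDUFC, NDUFS, NDUFV, UQCR, COX4, COX5, COX6, COX7, COX8 or ATP5, or are SDHA, SDHB, SDHC or SDHD. Mitochondrial members were the rows whose names start with MT-, and all 13 are protein genes. A mean of at least 1 CPM over the RNA libraries was required, where CPM scales the reads of a gene to a fixed total per library. Names of this kind stood on 108 rows, and 6 of them lay under the limit. COX6C-PS1 and COX8C were listed at 0 in every library, COX7A1, COX7B2 and NDUFS6 did not exceed 0.146 CPM, and NDUFA4L2 lay between 0.0503 and 0.893 CPM. The rule used the level alone and no difference between groups.

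The cells were ventricular cardiomyocytes of wild-type (wt) Sprague-Dawley (SD) rats aged 1 day. A first plating removed cells that attach quickly, and the rest were cultured on collagen and then moved to medium low in serum. For 0.5 h they received blebbistatin, which inhibits myosin II motors, or its solvent DMSO. The dose is 25 µM in the treatment protocol, while the design text also gives 0.25. RNA was sequenced from 3 libraries per group, which shared strain, age, genotype and medium. Whether the libraries of a group stem from separate preparations of cells is not stated, and p-values therefore reflect the spread of these libraries alone, which may be technical. The 12 chromatin and input samples were not used here.

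The respiratory chain passes electrons from NADH and succinate through complexes I to IV to oxygen and pumps protons, and complex V (ATP synthase) uses the resulting gradient to make ATP. Heart muscle is rich in these complexes because contraction depends on a steady supply of ATP. Complexes I, III, IV and V are built from subunits of both genomes, while all subunits of complex II are nuclear. The mitochondrial genes are transcribed as long precursors from both strands by a polymerase of their own, POLRMT, and the nuclear genes one by one by RNA polymerase II.

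The libraries held 59.6 to 63.3 M reads, and 3 reads correspond to 0.0474 to 0.0503 CPM, a limit that covers counting error only. Summed CPM of 16 cardiomyocyte markers ran from 32964 to 35467 with DMSO and from 32825 to 35360 with blebbistatin, and that of 14 fibroblast markers from 41370 to 47824 and from 41121 to 46332. Markers of cardiomyocytes, the labelled cell type, were thus high in every library, and so were those of fibroblasts. In such bulk RNA fewer cells of a type and less RNA per cell cannot be told apart. In deposited CPM the library of DMSO replicate 1 was the lowest of the 6 in 43.0% of the genes tested and the highest in 26.4%. On scaled values it was the lowest in 35.3%. Values from the other 5 libraries are therefore given beside many results, as the value without D1, where D1 is DMSO replicate 1.

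Nuclear genes of the chain are known targets of the transcription factors NRF1, GABP (an ETS factor), YY1 and ERR, so their promoters were searched for letters typical of each. RefSeq (build GRCr8) gave a promoter of 300 bases, from 250 before to 50 after the start, for 78 of the 89 nuclear members. Both strands were read. The palindromic NRF1 motif occurred in 15 of the 78 (19.2%), against 4.71% of all 27457 promoters in the table. The ETS letters CCGGAAG occurred in 22 (28.2% against 9.22%), the YY1 letters AAGATGGCG in 10 (12.8% against 1.93%) and the ERR letters AAGGTCA in 10 (12.8% against 4.37%). TATAAA occurred in 7 (8.97% against 14.3%). At least 1 of the NRF1, ETS and YY1 letters stood in 41 of the 78 (52.6%), against 14.3% of all promoters. All promoters were counted whether or not the gene was expressed here, while members had to reach 1 CPM. Shares over expressed genes alone were not computed, so these differences cannot be called particular to the chain. The letters of no motif contain those of another, and a match is a description of the sequence and not of binding.

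The promoters of 4 highly expressed members follow, 1 each of complexes I, III, IV and V, 5′ to 3′ on the gene's strand, to show the letters in place and a promoter that lacks them. Capitals mark matches to any of the 5 motifs on either strand. That of Ndufs1 (chr9:72073556-72073855, minus strand) holds 1 ETS match, read on the opposite strand. That of Uqcrc1 (chr8:118467973-118468272, plus strand) holds an NRF1 match, read on the opposite strand, and, at the start, a YY1 match. Those of Cox6a2 (chr1:192219667-192219966, minus strand) and Atp5f1b (chr7:1099808-1100107, plus strand) hold 0 matches, which says only that these letters are not in this window.
Ndufs1: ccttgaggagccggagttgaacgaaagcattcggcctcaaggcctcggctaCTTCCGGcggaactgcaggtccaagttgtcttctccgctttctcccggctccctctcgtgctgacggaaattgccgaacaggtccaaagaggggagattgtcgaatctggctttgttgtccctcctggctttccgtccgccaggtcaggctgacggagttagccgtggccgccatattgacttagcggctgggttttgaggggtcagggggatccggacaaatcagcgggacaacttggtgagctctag
Uqcrc1: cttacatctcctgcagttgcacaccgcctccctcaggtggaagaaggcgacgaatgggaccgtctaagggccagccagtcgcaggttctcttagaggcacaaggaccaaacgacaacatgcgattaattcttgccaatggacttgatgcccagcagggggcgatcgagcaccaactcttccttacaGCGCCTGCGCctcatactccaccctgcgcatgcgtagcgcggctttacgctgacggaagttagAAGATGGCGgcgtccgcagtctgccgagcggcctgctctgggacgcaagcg
Cox6a2: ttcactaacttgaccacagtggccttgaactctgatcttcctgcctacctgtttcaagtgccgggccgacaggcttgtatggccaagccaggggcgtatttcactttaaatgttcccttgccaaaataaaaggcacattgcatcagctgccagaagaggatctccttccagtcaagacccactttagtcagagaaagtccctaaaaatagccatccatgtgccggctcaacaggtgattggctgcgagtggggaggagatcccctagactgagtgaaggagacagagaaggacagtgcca
Atp5f1b: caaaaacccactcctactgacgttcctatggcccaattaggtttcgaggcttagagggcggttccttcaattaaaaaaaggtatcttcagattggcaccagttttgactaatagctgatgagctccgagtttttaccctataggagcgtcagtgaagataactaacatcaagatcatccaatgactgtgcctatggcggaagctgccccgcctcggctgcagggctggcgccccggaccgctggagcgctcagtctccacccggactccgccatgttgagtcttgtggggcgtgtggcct

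The first question was how much of each library came from either genome. The 13 mitochondrial members made up 6.19%, 6.58% and 6.12% of CPM in DMSO replicates 1 to 3 and 6.19%, 7.67% and 5.88% in blebbistatin replicates 1 to 3. The 89 nuclear members made up 0.793%, 1.14% and 1.54% with DMSO and 1.52%, 1.11% and 1.24% with blebbistatin. Blebbistatin replicate 2 was highest for the mitochondrial genes, DMSO replicate 1 was lowest for the nuclear genes, and the groups overlapped in both shares. As means, the mitochondrial share was 6.30 ± 0.248% with DMSO and 6.58 ± 0.956% with blebbistatin (SD, n = 3 each), and the nuclear share 1.16 ± 0.376% and 1.29 ± 0.208%. The nuclear difference of 0.130 percentage points was smaller than the SD of either group. The mitochondrial difference of 0.286 was slightly larger than the SD with DMSO and smaller than that with blebbistatin. Without DMSO replicate 1 the nuclear difference was -0.0528 percentage points.

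The ratio of summed mitochondrial to summed nuclear CPM does not depend on library scaling. Its values were 7.81, 5.77 and 3.96 in the DMSO libraries and 4.08, 6.89 and 4.76 in the treated ones. DMSO replicate 3 and blebbistatin replicate 1 had the lowest ratios and DMSO replicate 1 and blebbistatin replicate 2 the highest, so the span within a group exceeded the distance between the group means (5.85 ± 1.92 and 5.24 ± 1.47). CPM is not divided by gene length, so this ratio is compared between libraries only and gives no relative number of transcripts. By complex, the ratio was most uneven in complex I, at 12.8, 6.64 and 4.07 with DMSO and 4.22, 8.11 and 5.31 with blebbistatin. It was 33.5, 20.3 and 12.3 and then 12.8, 26.4 and 16.6 in complex IV. In complex III it was 8.50, 7.21 and 5.43 in the DMSO libraries and 5.46, 8.49 and 6.08 in the treated ones. The same 4 libraries were the extremes in each of these complexes and in complex V, where the ratio ran from 0.188 to 0.348.

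**Figure D1:**
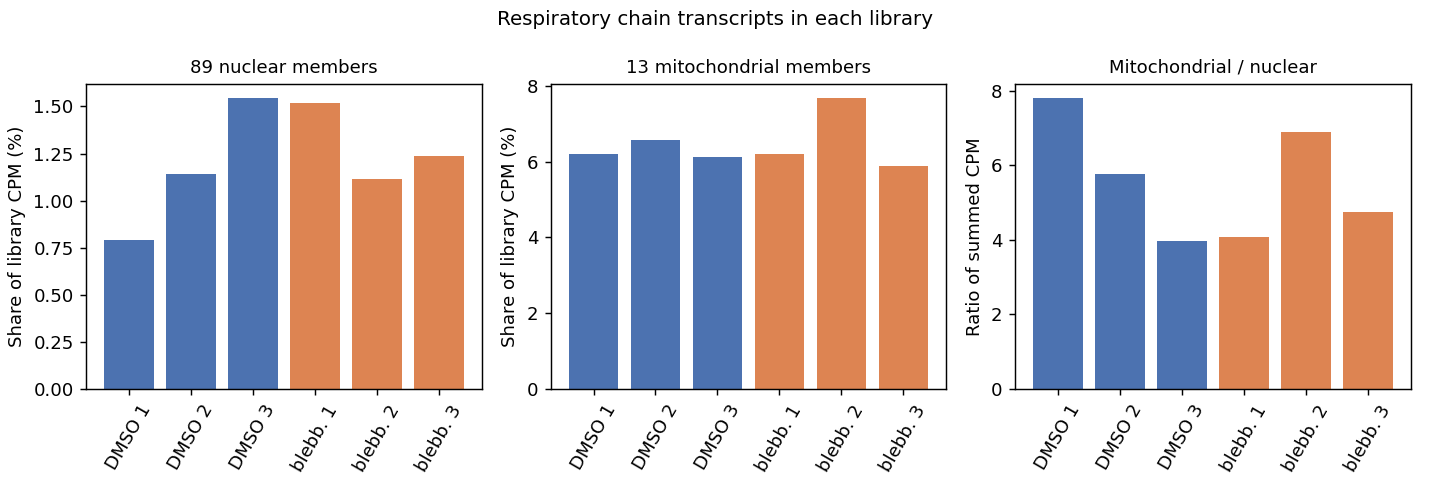
Share of library CPM in the 89 nuclear members (left), in the 13 mitochondrial members (centre) and the ratio of the sums (right), 1 bar per library, with DMSO in blue and blebbistatin in orange. The nuclear share runs from 0.793% in DMSO replicate 1 to 1.54% in DMSO replicate 3, and the groups overlap in all panels.

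Differences between blebbistatin and DMSO were tested for each gene with limma over all 15204 genes with enough reads, among which were all 102 members. None of the 89 nuclear members was called at an adjusted p under 0.05, in either direction, and none of the 13 mitochondrial members was. Over all genes, 0.00658% were called higher and 0.0132% lower, so a count of 0 among the members is no result about them. At an unadjusted p under 0.05 the count was likewise 0 in both groups of members, against 0.743% of all genes higher and 0.776% lower. The lowest adjusted p of a member was 0.991 (limma, Benjamini-Hochberg).

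The signs of the log2 fold changes nevertheless leaned apart between the genomes. Of the 89 nuclear members, 85 had a log2 fold change above 0 (median 0.19), while 5 of the 13 mitochondrial members did (median -0.08). Over all genes tested the median was 0.0040 and 50.7% were positive. The lean depended on single libraries. Without DMSO replicate 1, 25 of 89 nuclear members were positive with a median of -0.08, and 9 of 13 mitochondrial members with a median of 0.04. In that fit 0 members were called as well, against 0.0197% of all genes higher and 0.0197% lower, and 0 had an unadjusted p under 0.05, against 0.73% of all genes higher and 0.848% lower. The nuclear median was 0.06 without blebbistatin replicate 1, 0.45 without DMSO replicate 3 and 0.32 without blebbistatin replicate 2. The mitochondrial median was also positive, at 0.03, without blebbistatin replicate 3. No test was made of these medians.

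The groups did not overlap in 2 nuclear members after scaling, both higher with blebbistatin, against 3.24% of all genes in that direction and 2.89% in the other. NDUFA10L1, named as a relative of the complex I accessory subunit NDUFA10, was at 51.8, 58.13 and 58.09 CPM with DMSO and at 59.2, 58.3 and 60.3 CPM with blebbistatin (log2 fold change 0.04 ± 0.11, SE). NDUFAF4, a complex I assembly factor, was at 36.8, 38.5 and 40.7 CPM and at 41.1, 46.3 and 40.5 CPM (0.10 ± 0.12), and in CPM as deposited its groups overlapped. The differences were small in both.

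**Figure D2:**
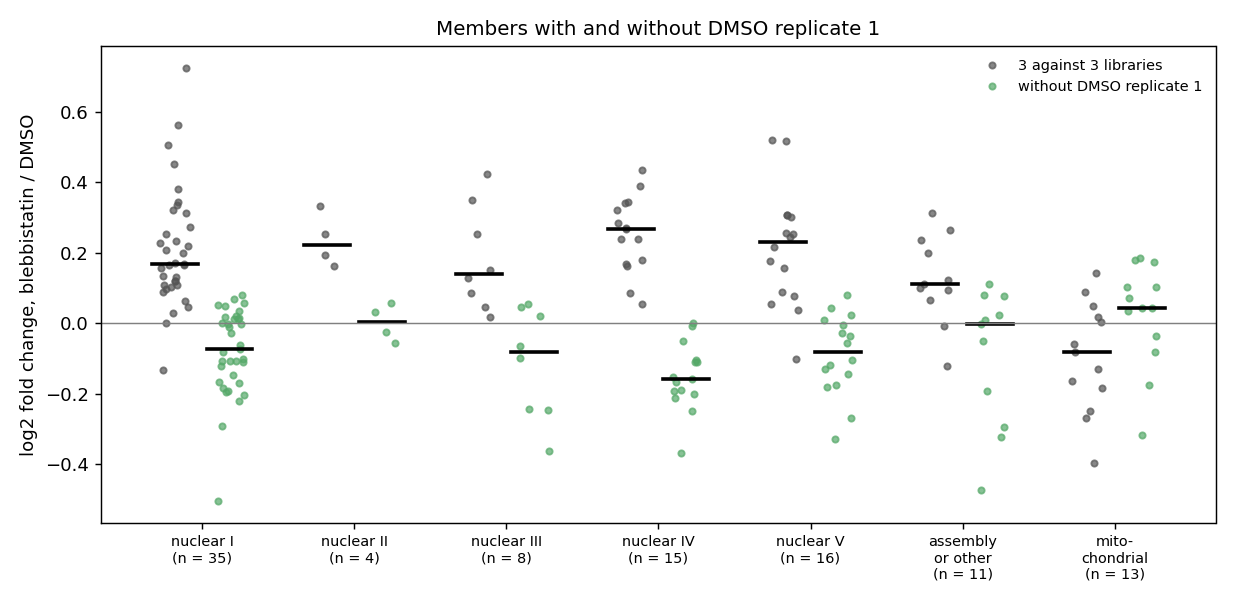
Log2 fold change of blebbistatin against DMSO for each member, by genome and complex (x axis), with all 6 libraries (grey) and without DMSO replicate 1 (green); black lines are medians. The nuclear medians of complexes I, III, IV and V lie above 0 in grey and below 0 in green.

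Across the 6 libraries the nuclear members moved together in an order that did not follow the treatment. In deposited CPM, 87 of the 89 (97.8%) were lowest in DMSO replicate 1, against 43.0% of all genes tested. The exceptions were NDUFAF1 and ATP5PB. Further, 83 (93.3%) were highest in DMSO replicate 3 or blebbistatin replicate 1, against 38.1% of all genes. In 77 members (86.5%) DMSO replicate 1 lay below DMSO replicate 2 and blebbistatin replicates 2 and 3, and these lay below DMSO replicate 3 and blebbistatin replicate 1, against 17.9% of all genes. This order was chosen after the values had been seen. On scaled values it held for 76 nuclear members (85.4%) and 14.7% of all genes, and in 0 of the 13 mitochondrial members on either scale. The libraries DMSO 3 and blebbistatin 1 belong to different groups, and so do the 3 libraries in the middle.

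How far apart the lowest and highest library were depended on the subunit. The median ratio of highest to lowest CPM was 2.48 over the nuclear members, from 1.11 in NDUFA9 to 10.4 in NDUFA1, and 1.495 over the mitochondrial members. For NDUFA9, a complex I accessory subunit, the 6 values ran from 128.4 to 142.6 CPM. NDUFA1, a small membrane subunit of the same complex, was at 2.83, 10.9 and 29.4 CPM with DMSO and at 22.9, 13.8 and 14.4 CPM with blebbistatin. Nuclear subunits with a RefSeq copy or pseudogene of the same name, whose reads may be shared, had a median ratio of 2.79 (41 genes) and those without one of 2.39 (35 genes).

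**Figure D3:**
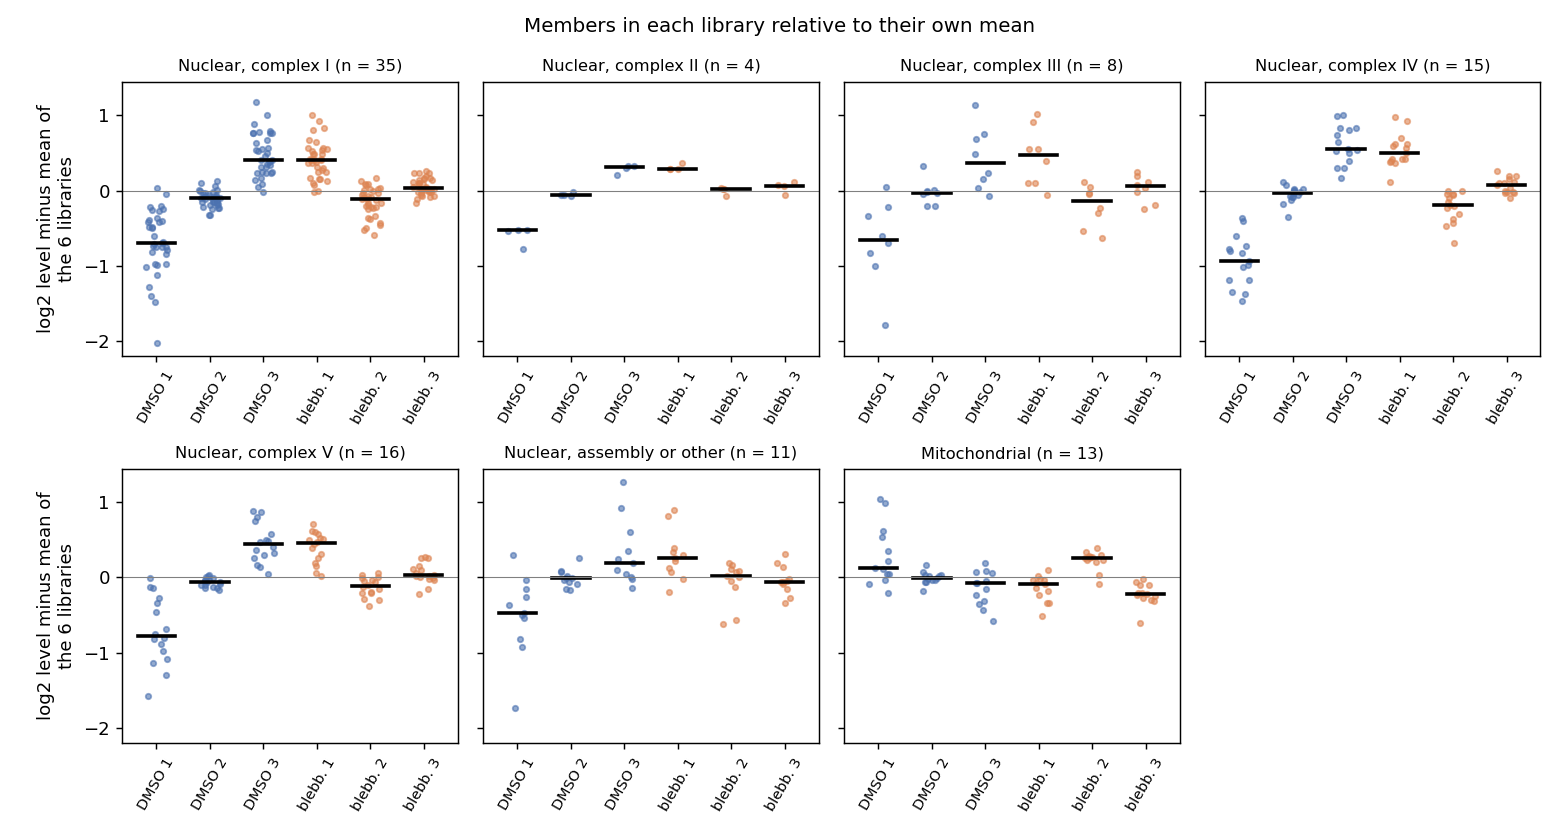
Log2 level of each member in each library minus its mean over the 6 libraries (y axis), by genome and complex; points are genes, black lines medians, DMSO in blue and blebbistatin in orange. The nuclear panels share a low DMSO replicate 1 and a high DMSO replicate 3 and blebbistatin replicate 1, and the mitochondrial panel does not.

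Complex I takes electrons from NADH. Its 7 nuclear core subunits, which carry the flavin and iron-sulphur centres, had a median ratio of highest to lowest library of 1.69, and its 27 accessory subunits, which surround the core, one of 2.74. NDUFS1, the iron-sulphur subunit with the highest CPM of the nuclear complex I genes, was at 170.5, 203.7 and 229.8 CPM with DMSO and at 233.8, 220.9 and 215.4 CPM with blebbistatin (log2 fold change 0.12 ± 0.13, SE, and 0.05 ± 0.11 without D1). NDUFS7, another iron-sulphur subunit, had the lowest p of the nuclear members and was at 28.4, 60.1 and 79.4 CPM and at 75.9, 68.0 and 72.9 CPM. For NDUFS7 DMSO replicates 1 and 2 lay below every treated library, with replicate 1 much the lowest, and DMSO replicate 3 lay above them all. The log2 fold change of NDUFS7 was 0.45 ± 0.31 with 6 libraries (unadjusted p = 0.189, adjusted p = 0.991, limma) and 0.07 ± 0.14 without DMSO replicate 1. NDUFA11, a membrane accessory subunit, was at 63.5, 79.1 and 108.5 CPM and at 103.6, 89.3 and 100.5 CPM (0.22 ± 0.18, and 0.08 ± 0.15 without D1). Of the 35 nuclear complex I genes 34 were positive with a median of 0.17, and 11 were positive without DMSO replicate 1, with a median of -0.07.

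Complex II oxidises succinate and links the chain to the citric acid cycle. Its flavoprotein gene SDHA was at 165.2, 247.7 and 328.9 CPM with DMSO and at 324.5, 244.7 and 274.7 CPM with blebbistatin. The iron-sulphur subunit gene SDHB was at 85.2, 131.0 and 165.5 CPM and at 164.8, 132.6 and 128.6 CPM. In both genes the highest DMSO library exceeded every treated library. The membrane anchor gene SDHC was at 115.4, 172.8 and 210.3 CPM and at 223.3, 182.7 and 188.9 CPM, and SDHD at 78.4, 140.1 and 184.6 CPM and at 191.7, 145.5 and 157.5 CPM. In the anchors blebbistatin replicate 1 was highest, and the groups overlapped as well. The log2 fold changes were 0.19 ± 0.23 for SDHA, 0.16 ± 0.22 for SDHB, 0.25 ± 0.20 for SDHC and 0.33 ± 0.27 for SDHD, and without DMSO replicate 1 they lay between -0.06 and 0.06. All 4 genes followed the order of libraries described above.

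Complex III passes electrons from ubiquinol to cytochrome c. Its 3 large nuclear subunits varied little between libraries, with a median ratio of highest to lowest of 1.38, and its 5 small ones more, with 3.41. The core protein gene UQCRC1 was at 287.6, 302.5 and 291.7 CPM with DMSO and at 296.4, 293.3 and 328.5 CPM with blebbistatin, a log2 fold change of 0.02 ± 0.12 with a 95% interval from -0.26 to 0.30. UQCRC2, the other core protein, was at 221.3, 276.9 and 290.8 CPM and at 305.1, 299.0 and 276.9 CPM (0.13 ± 0.13, and 0.05 ± 0.11 without D1). The Rieske iron-sulphur protein gene UQCRFS1 was at 158.3, 210.4 and 245.2 CPM and at 238.5, 221.1 and 229.9 CPM (0.15 ± 0.15, and 0.02 ± 0.11 without D1). Blebbistatin replicate 3 was highest for UQCRC1. In complex III the order of libraries held for 5 of the 8 nuclear genes, with UQCRC1 and UQCRC2 among the exceptions, and the groups overlapped for all of the large subunits. The small subunit gene UQCR11 was at 17.6, 67.0 and 147.2 CPM and at 136.7, 42.2 and 78.8 CPM. The 2 libraries that were high for UQCR11 came from different groups, and its log2 fold change was 0.42 ± 0.80, and -0.36 ± 0.67 without D1.

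Complex IV reduces oxygen, and its nuclear subunits surround a catalytic core made of mitochondrial products. All 15 nuclear members had a positive log2 fold change (median 0.27), and all 15 a negative one without DMSO replicate 1 (median -0.16), the widest swing of the 5 complexes. Their median ratio of highest to lowest library was 3.196. The general isoform gene COX4I1 was at 169.7, 314.5 and 434.8 CPM with DMSO and at 431.1, 311.1 and 365.9 CPM with blebbistatin (0.32 ± 0.30, and -0.0091 ± 0.17 without D1). COX5A, a matrix-side subunit, was at 93.1, 181.7 and 215.3 CPM and at 231.0, 164.1 and 182.1 CPM (0.27 ± 0.28, and -0.05 ± 0.15 without D1). DMSO replicate 1 was low in both genes, and the other libraries of the groups overlapped.

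Several complex IV subunits have a form of heart and skeletal muscle beside a general one. The muscle form COX6A2 was at 172.5, 377.4 and 551.3 CPM with DMSO and at 534.9, 318.1 and 401.3 CPM with blebbistatin, and the general form COX6A1 at 62.9, 177.3 and 312.8 CPM and at 293.3, 135.0 and 214.2 CPM. Their log2 fold changes were 0.27 ± 0.38 and 0.39 ± 0.53, and -0.15 ± 0.23 and -0.20 ± 0.40 without D1. The ratio of COX6A2 to COX6A1 CPM was 2.74, 2.13 and 1.76 in the controls and 1.82, 2.36 and 1.87 in the treated libraries, highest in DMSO replicate 1 and overlapping between groups. COX8A, the general form, was at 51.6, 137.2 and 314.3 CPM and at 301.4, 110.6 and 179.2 CPM (0.44 ± 0.63, and -0.19 ± 0.60 without D1). The muscle form COX8B was at 4.98, 11.8 and 25.1 CPM and at 19.2, 9.12 and 13.3 CPM (0.18 ± 0.53, and -0.37 ± 0.41 without D1). The ratio of COX8A to COX8B ran from 10.4 to 12.5 with DMSO and from 12.1 to 15.7 with blebbistatin, where blebbistatin replicates 1 and 3 were highest and DMSO replicate 3 exceeded blebbistatin replicate 2. The difference of its group means was 2.26, and 1.69 without D1. COX4I2, a form tied to low oxygen, was at 5.84, 8.85 and 9.30 CPM and at 9.02, 8.03 and 8.08 CPM (0.06 ± 0.19, and -0.11 ± 0.16 without D1). COX6B1 was at 23.0, 48.2 and 86.2 CPM and at 79.7, 42.6 and 50.3 CPM (0.24 ± 0.43, and -0.21 ± 0.34 without D1), and its testis form COX6B2 at 1.62, 2.16 and 2.96 CPM and at 3.15, 1.87 and 2.72 CPM (0.16 ± 0.29, and -0.00033 ± 0.30 without D1). Their ratio ran from 14.2 to 29.1 in the DMSO libraries and from 18.5 to 25.3 in the treated ones. COX7A1, the muscle form of another subunit, lay under the level limit. The general form, COX7A2, has no row of that name in the deposited data, so that pair was not compared. NDUFA4, now placed in complex IV, was at 92.4, 149.2 and 218.2 CPM and at 208.2, 131.3 and 142.7 CPM (0.09 ± 0.29, and -0.19 ± 0.23 without D1). The groups overlapped in each of these ratios.

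Complex V makes ATP in its catalytic F1 head, which a rotor ring in the membrane drives and a peripheral stalk holds. ATP5F1B, the catalytic beta subunit, was at 1698, 1899 and 2319 CPM with DMSO and at 2301, 1947 and 2025 CPM with blebbistatin (0.05 ± 0.14, 95% interval -0.28 to 0.39, and -0.0037 ± 0.13 without D1). ATP5F1A, the alpha subunit, was at 933.0, 1079.5 and 1165 CPM and at 1147, 1149 and 1160.1 CPM (0.09 ± 0.12, and 0.04 ± 0.10 without D1). Both head subunits were lowest in DMSO replicate 1 and their groups overlapped. ATP5F1D, the delta subunit in the central stalk, was at 107.0, 194.8 and 244.7 CPM and at 247.1, 180.4 and 235.0 CPM (0.31 ± 0.27, and 0.01 ± 0.16 without D1). ATP5MD, a small membrane subunit that helps join ATP synthases in pairs, was at 5.49, 12.1 and 19.0 CPM and at 20.2, 12.6 and 16.0 CPM (0.52 ± 0.40), and without DMSO replicate 1 its log2 fold change was 0.08 ± 0.24. The median ratio of highest to lowest library was 3.87 in the 4 small membrane subunits and 2.64 in the 3 rotor ring genes. It was 1.88 in the 4 of the peripheral stalk and 1.61 in the 5 ATP5F1 genes of the head and central stalk. Among these 5 the ratio ran from 1.25 in ATP5F1A to 6.05 in ATP5F1E. In the peripheral stalk ATP5PB was at 101.2, 98.5 and 140.2 CPM and at 117.1, 109.9 and 95.3 CPM. ATP5PB was the single nuclear complex V gene with a negative log2 fold change (-0.10 ± 0.16).

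Beside the subunits and the 2 genes named as relatives of a subunit (NDUFA10L1 and COX7A2L2) stood 11 nuclear members that assemble or regulate the complexes, of which 8 are NDUFAF genes, which help assemble complex I. NDUFAF1 was at 20.0, 15.9 and 18.4 CPM with DMSO and at 15.8, 19.5 and 16.0 CPM with blebbistatin, and was the nuclear member highest in DMSO replicate 1. NDUFAF8 was at 1.77, 6.57 and 16.3 CPM and at 12.6, 4.22 and 7.61 CPM, a spread that resembled the small subunits. ATP5IF1, the inhibitor that stops ATP synthase from running backwards, was at 38.0, 70.2 and 150.8 CPM and at 141.2, 52.5 and 74.3 CPM (0.11 ± 0.50, and -0.32 ± 0.58 without D1). The group as a whole had a median log2 fold change of 0.11, and of -0.0021 without DMSO replicate 1.

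The mitochondrial genes showed another pattern. Blebbistatin replicate 2 was high for most of them, with a median of 0.26 above the gene's own mean on the log2 scale. Blebbistatin replicate 3 was low, with -0.23, so the treated group held both extremes of these medians. Single genes differed. In deposited CPM, DMSO replicate 1 was the highest library for 5 of the 13 (38.5%), against 26.4% of all genes tested. MT-CO1, the catalytic subunit of complex IV, was at 22421, 29625 and 27232 CPM with DMSO and at 28158, 34345 and 27252 CPM with blebbistatin (0.14 ± 0.16). MT-CYB, the only mitochondrial subunit of complex III, was at 6946, 7961 and 7435 CPM and at 7426, 9205 and 7223 CPM (0.05 ± 0.15). Blebbistatin replicate 2 was highest in both, and the groups overlapped. MT-CO2 was at 3108, 3356 and 3468 CPM and at 3261, 3795 and 2671 CPM (-0.08 ± 0.16), and MT-CO3 at 6826, 7881 and 8449.5 CPM and at 8163, 9106 and 6696 CPM (0.0047 ± 0.16).

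The largest spread among mitochondrial genes lay in complex I. MT-ND5 was at 7161, 3656 and 2575 CPM with DMSO and at 2717, 4730.4 and 3258 CPM with blebbistatin. MT-ND6 was at 1164, 570.0 and 482.3 CPM and at 517.9, 772.4 and 516.9 CPM. MT-ND4 was at 4571, 3484 and 2739 CPM and at 2764, 4051 and 3228 CPM. DMSO replicate 1 was the highest library for these 3 genes and for MT-ND4L, whereas it was the lowest for nearly all nuclear subunits of the same complex. Their log2 fold changes were -0.27 ± 0.41 for MT-ND5, -0.25 ± 0.37 for MT-ND6, -0.13 ± 0.25 for MT-ND4 and -0.16 ± 0.26 for MT-ND4L, and without DMSO replicate 1 all lay between 0.10 and 0.18. MT-ND4L was at 1341, 915.8 and 775.0 CPM and at 855.5, 1081 and 792.3 CPM. The other mitochondrial complex I genes varied less, with ratios of highest to lowest library of 1.37, 1.36 and 1.35. MT-ND1 was at 2499.9, 2385 and 2133 CPM and at 2156, 2777 and 2034 CPM (-0.06 ± 0.18, and 0.03 ± 0.16 without D1), and MT-ND2 at 3753, 3926 and 3866 CPM and at 3976, 4671 and 3440.2 CPM (0.02 ± 0.15). MT-ND3 was at 754.4, 745.1 and 879.3 CPM and at 733.5, 764.2 and 650.9 CPM (-0.18 ± 0.13). MT-ND1 and MT-ND2 were highest in blebbistatin replicate 2, and the groups overlapped in all 3 genes.

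As a share of the 13-gene sum, MT-ND4L, MT-ND4, MT-ND5 and MT-ND6 together held 23.0%, 13.1% and 10.7% in the DMSO libraries and 11.1%, 13.9% and 13.3% in the treated ones. These genes lie next to each other in the mitochondrial genome. MT-CO1 was lowest in DMSO replicate 1, where these genes were highest, with 36.2%, 45.02% and 44.5% and then 45.5%, 44.8% and 46.3%. MT-ND5 stood at 31.9% of MT-CO1 in DMSO replicate 1 and at 9.46% to 13.8% in the other 5 libraries. MT-ND6 is read from the strand opposite to MT-ND5, and MT-ND4L overlaps MT-ND4 as MT-ATP8 overlaps MT-ATP6. The strand setting and the treatment of shared reads are not given in the sources used here, so reads of these neighbours may be split between them.

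MT-ATP8, a small subunit of complex V, had the lowest p of all 102 members. It was at 605.3, 580.2 and 549.1 CPM with DMSO and at 563.1, 477.2 and 341.8 CPM with blebbistatin, so that blebbistatin replicate 1 lay within the DMSO values and the other 2 below them. Its log2 fold change was -0.40 ± 0.20 (95% interval -0.86 to 0.07, unadjusted p = 0.0848, adjusted p = 0.991, limma), and -0.32 ± 0.19 without DMSO replicate 1. MT-ATP6, which shares its transcript, was at 728.1, 713.7 and 627.3 CPM and at 632.6, 938.0 and 717.9 CPM (0.09 ± 0.19). Of the 13-gene sum MT-ATP8 held 0.978%, 0.882% and 0.897% with DMSO and 0.909%, 0.622% and 0.581% with blebbistatin, and MT-ATP6 1.18%, 1.08% and 1.02% and then 1.02%, 1.22% and 1.22%.

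**Figure D4:**
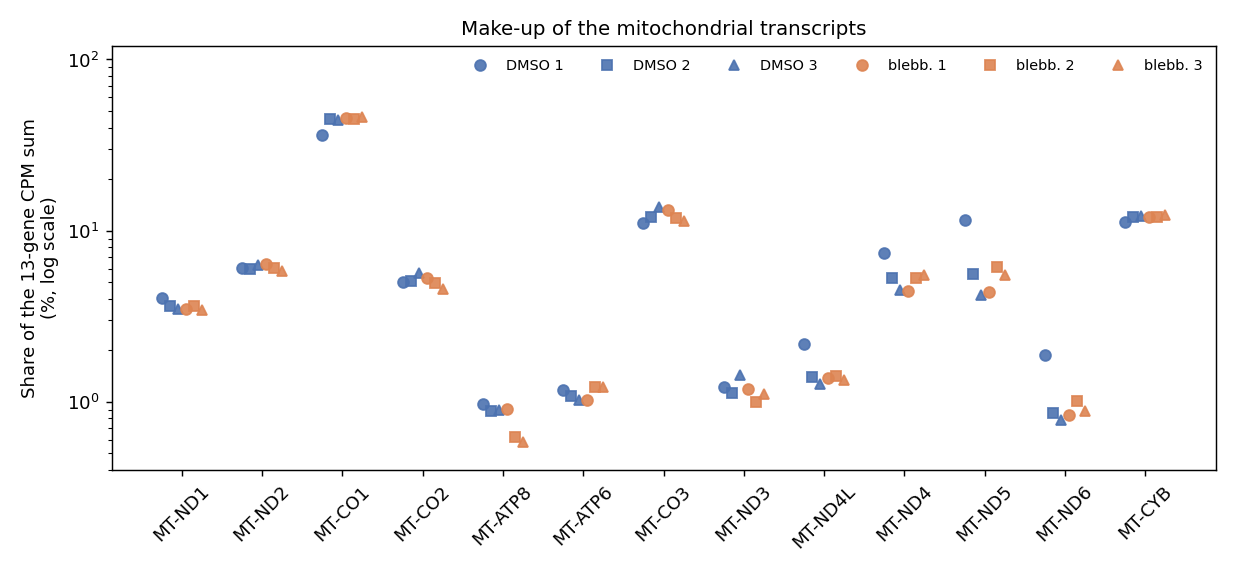
Share of each mitochondrial gene in the 13-gene CPM sum (percent, log axis), 1 point per library, with genes in the order of the genome except that MT-ND6 is read from the other strand. DMSO replicate 1 (blue circle) is highest for MT-ND4L, MT-ND4, MT-ND5 and MT-ND6 and lowest for MT-CO1, and blebbistatin replicates 2 and 3 are lowest for MT-ATP8.

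Other genes around the chain were taken from lists, by counts and medians only. In all 7 lists limma called 0 genes, against 0.00658% of all genes higher and 0.0132% lower. At an unadjusted p under 0.05 the count was also 0, against 0.743% of all genes higher and 0.776% lower. With so few genes called, a count of 0 is no result about these lists. Positive log2 fold changes were held by 76 of 80 cytosolic ribosomal protein genes (median 0.22), 71 of 77 mitochondrial ribosomal protein genes (0.18), 14 of 16 electron carrier and ubiquinone genes (0.15), 24 of 27 genes of mitochondrial mass and import (0.11), 22 of 33 of mitochondrial transcription and RNA handling (0.11), 26 of 37 other assembly factors (0.06) and 10 of 21 regulators (-0.02). Without DMSO replicate 1 the 7 medians lay between -0.05 and 0.04. Cytosolic ribosomal proteins have no part in the chain, yet 60 of 80 followed the order of libraries on scaled values, next to 49 of 77 mitochondrial ribosomal protein genes and 68 of the 76 nuclear subunits.

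Of single genes in these lists, cytochrome c (CYCS), the carrier between complexes III and IV, was at 15.9, 26.0 and 26.9 CPM with DMSO and at 27.4, 27.1 and 30.1 CPM with blebbistatin (0.29 ± 0.19). The groups of CYCS did not overlap, as was found after scaling for 3.24% of all genes in that direction. Without DMSO replicate 1 the log2 fold change of CYCS was 0.09 ± 0.12. POLG2, the accessory subunit of the mitochondrial DNA polymerase, was at 4.17, 3.74 and 4.68 CPM and at 3.75, 2.75 and 2.66 CPM (-0.49 ± 0.22, unadjusted p = 0.0593, adjusted p = 0.991, limma, and -0.45 ± 0.25 without D1). On scaled values the groups of POLG2 did not overlap, as for 2.89% of all genes in the lower direction. The transcription factor of mitochondrial DNA, TFAM, was at 30.6, 46.8 and 49.2 CPM and at 53.7, 45.8 and 46.9 CPM (0.20 ± 0.17, and 0.03 ± 0.12 without D1). Regulators of the nuclear genes differed in how they varied. PPARGC1A, the coactivator PGC-1 alpha, was at 11.8, 10.2 and 11.03 CPM and at 11.3, 13.3 and 11.5 CPM (0.08 ± 0.17), and NRF1 at 28.7, 26.0 and 27.8 CPM and at 27.4, 28.2 and 27.9 CPM (-0.02 ± 0.13). Neither was lowest in DMSO replicate 1. ESRRA, the gene of an ERR factor, was at 40.1, 55.3 and 63.4 CPM and at 69.5, 40.5 and 61.9 CPM (0.06 ± 0.22), lowest in DMSO replicate 1 and high in DMSO replicate 3 and blebbistatin replicate 1 like the nuclear members, but also low in blebbistatin replicate 2. GABPA, a subunit of GABP, was at 60.3, 74.6 and 60.6 CPM and at 57.4, 75.6 and 58.9 CPM (-0.07 ± 0.16), highest in the replicates numbered 2. Over the 21 regulators the median ratio of highest to lowest library was 1.46, with a maximum of 2.33. In DMSO replicate 1, 7 of the 21 (33.3%) were lowest and 10 (47.6%) highest, against 43.0% and 26.4% of all genes tested.

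Cell markers were set beside the same libraries. On the log2 scale relative to a gene's own mean, the median in DMSO replicate 1 was -0.74 for the nuclear subunits, -0.67 for cytosolic ribosomal proteins, -0.40 for 16 cardiomyocyte markers, -0.73 for 11 macrophage and leukocyte markers, -0.0063 for 14 fibroblast markers and 1.31 for 4 red blood cell markers. A further red blood cell marker, the embryonic globin gene HBE1, was listed at 0 in every library. Within the cardiomyocyte list, TNNI3 was at 118.4 CPM there against 189.2 to 268.1 CPM elsewhere, while RYR2 was at 1201 against 555.8 to 758.5 CPM and MYH6 at 2203 against 1590 to 1644 CPM. In DMSO replicate 3 and blebbistatin replicate 1 the cardiomyocyte medians were 0.25 and 0.33, next to 0.47 and 0.41 for the nuclear subunits. The part of cell make-up or RNA quality in the order of libraries was not tested.

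**Figure D5:**
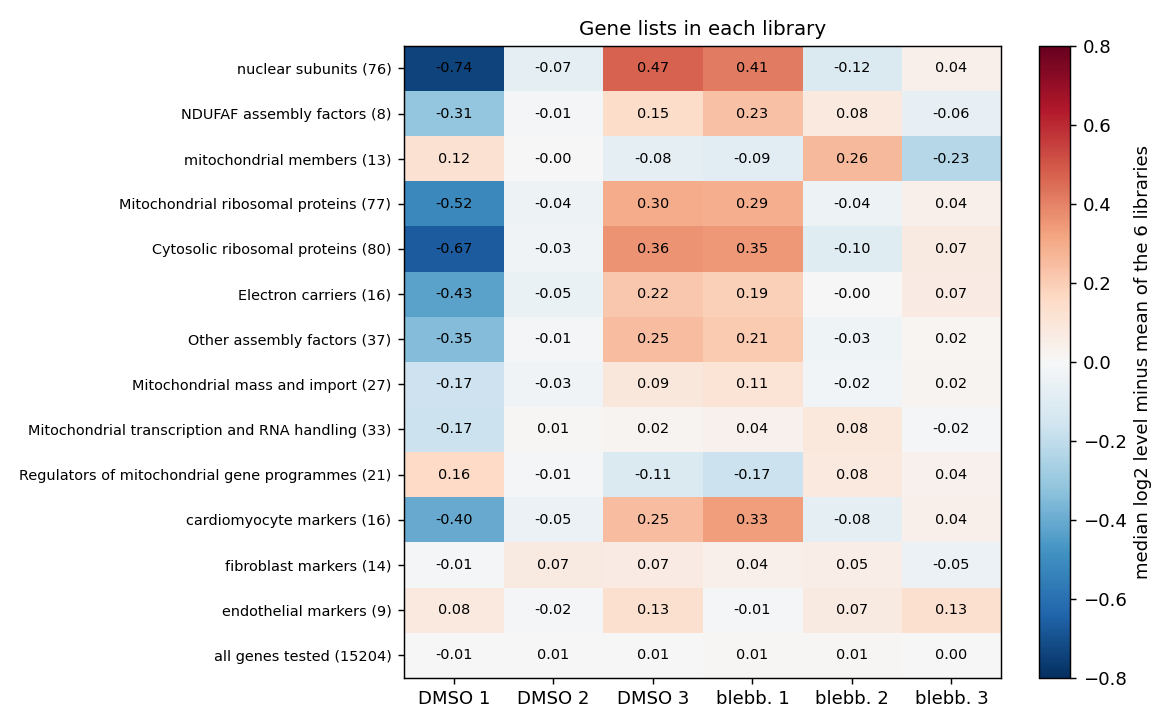
Median log2 level minus the gene's mean over the 6 libraries, for nuclear subunits, mitochondrial members, other gene lists and cell markers (rows, number of genes in brackets) in each library (columns). Nuclear subunits and both kinds of ribosomal protein are low in DMSO replicate 1 and high in DMSO replicate 3 and blebbistatin replicate 1, and mitochondrial members are not.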

How the data were processed

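The deposited RNA table covers 28909 genes and 6 libraries in CPM computed by the authors, and each column has the same total. Per the submitters' processing notes the build was rn6 and the tools included edgeR 3.20.9, HISAT2 2.1.0 and StringTie 1.3.4, but which of them made this table is not stated. The strand setting and the annotation are not given in the sources used here. The smallest step between values, taken as 1 read, gives the depth, and 99.1 to 99.2% of nonzero values per library were multiples of it within 0.02. Since some are not, the values were tested as CPM.

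From these, log2(CPM / TMM factor + 0.1) was computed (TMM factors 0.928 to 1.03, trims 0.3 and 0.05). The added 0.1 understates changes of low genes. A linear model (limma 3.58.1, R 4.3.3, trended and robust eBayes, two-sided, no block) was fitted to the 15204 genes with the CPM of at least 10 reads in at least 3 libraries, of 19425 above 0. A gene was called at a Benjamini-Hochberg adjusted p under 0.05. Library values in the text are CPM as deposited, and log2 values rest on CPM divided by the TMM factor. Means ± SD given for shares are of deposited CPM. The linear model and the adjustment of p were run on simulated log2 values, drawn independently for each gene. Scaling, the filter and the added 0.1 were not part of that run.

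Members and lists were chosen with earlier results of these data known. Genes named are every mitochondrial member, per complex the nuclear subunit with the highest mean CPM and the 2 with the lowest p, the isoform pairs of complex IV, the 4 complex II genes and, in each related list, the 2 with the lowest p. The related genes of this rule not described in the report are given in the closing section. Other genes named were chosen after their values were seen. All 89 nuclear members matched a RefSeq symbol or synonym, and 45 have a RefSeq copy or pseudogene of the same name. Alternatives covered scaling, filters, the pseudocount, library weights, the replicate block and leaving out each library.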

Additional observations from a re-analysis of the deposited data

How the results depend on the processing

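No member was called under any of the alternatives run. Over all genes 3 were called, 1 higher and 2 lower. With gene-by-gene library weights the counts were 13, 5 and 8, and with only genes above 0 in every library 0, 0 and 0. The count called higher was also 0 without a filter, with a pseudocount of 0.5 or 1 CPM, with the replicate block and at an adjusted p under 0.01. Leaving out 1 library gave 3 to 6 genes in all, 0 to 4 higher and 2 to 3 lower. The median log2 fold change of nuclear members ran from -0.08 to 0.45 with 1 library left out, that of mitochondrial members from -0.22 to 0.04 and their difference from -0.12 to 0.58 (0.28 with all libraries). The lowest nuclear value was without DMSO replicate 1, and library weights gave 0.08. The difference in nuclear share ran from -0.0528 to 0.323 percentage points and that in mitochondrial share from -0.259 to 0.636, the latter negative without blebbistatin replicate 2. The cause was not tested.

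Deviations from the group means correlated at -0.289, 0.0542 and -0.092 for libraries of equal replicate number, and highest, at 0.376, for DMSO 3 with blebbistatin 1. With 3 libraries per group these values cannot show whether equal numbers share a preparation. With the replicate block 0 genes were called higher and 2 lower. The block cannot move the medians of members, because every replicate number stands in both groups.

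Of the values of named members under alternatives, 608 kept their sign and 40 did not, none of them called. Other filters, the replicate block and a fit without the robust option leave each log2 fold change as it is, so no sign could change there. With library weights the log2 fold change of MT-CO3 was -0.0711, that of MT-CYB -0.0238, that of MT-ND2 -0.0313, that of COX4I2 -0.077 and that of NDUFA4 -0.0255. Leaving out 1 library gave these lowest and highest values: MT-ATP6 -0.0811 to 0.224, MT-CO2 -0.215 to 0.0516, MT-CO3 -0.107 to 0.128, MT-CYB -0.0728 to 0.116, MT-ND1 -0.207 to 0.0338, MT-ND2 -0.108 to 0.126, MT-ND4 -0.335 to 0.103, MT-ND4L -0.361 to 0.103, MT-ND5 -0.622 to 0.184, MT-ND6 -0.525 to 0.179, SDHA -0.0257 to 0.403, SDHB -0.0557 to 0.355, UQCRC1 -0.0327 to 0.0491, COX4I1 -0.00906 to 0.601, COX4I2 -0.111 to 0.153, COX5A -0.0494 to 0.486, COX6A1 -0.202 to 0.886, COX6A2 -0.153 to 0.616, COX6B1 -0.211 to 0.671, COX6B2 -0.000329 to 0.359, COX8A -0.189 to 1.04, COX8B -0.369 to 0.719, NDUFA4 -0.192 to 0.359 and ATP5F1B -0.00788 to 0.153. The comparison of mitochondrial subunits alone was not run, since all 13 are subunits.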

Other observations

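The remaining genes with the lowest p of each related list did not pass (lowest limma adjusted p 0.991). D1 is DMSO replicate 1. COQ2, which starts the ring chemistry of ubiquinone, had 0.39 ± 0.23, and 0.15 ± 0.15 without D1. The assembly factors SDHAF1 and ATPAF2, of complex II and of ATP synthase, had 0.38 ± 0.19 and 0.37 ± 0.24, and the latter 0.12 ± 0.15 without D1. SDHAF1 was at 9.89, 15.9 and 16.2 CPM with DMSO and at 19.5, 17.0 and 18.3 CPM with blebbistatin, so its groups did not overlap, and without D1 it had 0.19 ± 0.13. MTERF2, a mitochondrial transcription factor, had 0.43 ± 0.25, and 0.27 ± 0.24 without D1. The mitochondrial ribosomal protein genes MRPS11 and MRPL38 had 0.28 ± 0.16 and 0.32 ± 0.19, and 0.25 ± 0.16 and 0.12 ± 0.12 without D1. The cytosolic RPL9 was at 15.8, 18.8 and 20.9 CPM with DMSO and at 21.1, 26.6 and 25.7 CPM with blebbistatin (0.36 ± 0.16, and 0.30 ± 0.15 without D1), and RPL29 had 0.53 ± 0.31 (0.16 ± 0.14 without D1). The deacetylase gene SIRT3 had 0.39 ± 0.27 and CREB1 -0.22 ± 0.18, and 0.12 ± 0.18 and -0.07 ± 0.14 without D1. PHB and the phosphate carrier gene SLC25A3 had 0.19 ± 0.14 and 0.20 ± 0.16, and 0.08 ± 0.11 and 0.05 ± 0.10 without D1. Like those of SDHAF1, the groups of MRPL38, RPL9 and SLC25A3 did not overlap on scaled values, all higher with blebbistatin. Over all genes 3.24% were separated in that direction.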
